A study of Citrullus lanatus with 30 samples.

Results

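Among the 22596 loci measured by RNA-seq in watermelon fruit, 133 lay under 0.5 FPKM in each of the 3 Mock flesh libraries and at 1 FPKM or more in each of the 3 5_Aza flesh libraries. FPKM, the number of fragments per kilobase of transcript scaled to the mapped total of the library, is a level per length, so levels can be set side by side between loci. These loci, called the activated loci here, were chosen by their Mock and 5_Aza values, which are therefore given as a description without a test. They were drawn from 6192 loci under 0.5 FPKM in each Mock library (Mock-silent loci, the 133 included), of which they were 2.15%. The opposite rule, 1 FPKM or more in each Mock library and under 0.5 in each 5_Aza library, was met by 2 of 14592 loci (0.0137%). The bases of these shares are unlike. The 14592 are all loci at 1 FPKM or more in each Mock library, and many lay far above it, as 9568 loci had a Mock mean of 10 FPKM or more. Near-silent describes the activated loci in Mock flesh. It does not describe all of them in the fruit at large, since 78 reached 1 FPKM in every usable library of at least 1 flesh stage or rind group.

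Flesh of the cultivar 97103 of Citrullus lanatus subsp. vulgaris was sampled in 3 libraries at each of 6 ages in days after pollination (DAP). The stages were named PD at 0 DAP, AP at 1 DAP, SW at 5 DAP, BW at 10 DAP, CT at 20 DAP and RF at 30 DAP. Mock and 5_Aza were 3 libraries each of 20 DAP flesh with Wild-type as the genotype label. Their labels name no cultivar, and for 5_Aza they give the agent as 5-zazcytidine, with no dose, time or route. Rind of 97103, the firm outer layer of the fruit, had 2 libraries in each of 3 groups, R4_CT at 20 DAP and both R4_RF and R2_RF at 30 DAP. These samples are named rind by their source label and flesh by their tissue label, and R2 and R4 are not explained.

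5-Aza usually stands for 5-azacytidine, a cytidine analogue that is built into DNA and traps DNA methyltransferases, so that methylation is lost as cells copy their DNA. Plants methylate cytosine in the CG, CHG and CHH sequence contexts, through separate families of methyltransferases and an RNA-directed pathway, and dense methylation at transposons and at some promoters goes with silence. In tomato, a DNA demethylase acts during fruit ripening, and injected 5-azacytidine has been used to lower methylation in its fruit. DNA methylation itself was not analysed here. The files name loci by coordinates alone, on sequences whose names begin with WM97pbV1, so what a locus encodes and where its exons lie were not analysed.

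The 5_Aza libraries held more expressed loci overall than the Mock libraries, with 15589 to 15655 against 14953 to 14992 loci at 1 FPKM or more, and 3555 to 3630 against 4121 to 4396 loci listed at 0. Summed FPKM was 835208 to 839682 in 5_Aza and 846199 to 849284 in Mock. Read depth is unknown, so no counting interval can be given for a single value, and a value of 0 means that the locus was listed at 0. Scaling the libraries by median-of-ratios size factors left 126 of the 133 loci within the rule. AP rests on replicate 3, since values and loci were out of step in replicates 1 and 2. Whether replicates were separate fruits is not stated in the labels, so the spread behind the p-values may be technical. The material is bulk tissue, where fewer cells of a type and less RNA per cell cannot be told apart.

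In 5_Aza flesh the activated loci were mostly weakly expressed. The mean over the 5_Aza libraries had a median of 2.34 FPKM over the 133 loci, quartiles of 1.72 and 4.05, and a range of 1.08 to 45.1 FPKM. Only 10 loci reached a mean of 10 FPKM and another 10 lay from 5 to under 10, while 62 lay from 2 to under 5 and 51 under 2 FPKM. The coefficient of variation over the 3 5_Aza libraries had a median of 13.8% and ran from 1.75% to 44.8%. Most were not fully silent in Mock flesh: the median Mock mean was 0.0983 FPKM, and 24 of the 133 (18.0%) were listed at 0 in each Mock library, against 55.5% of the Mock-silent loci.

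The highest level belonged to chr2:30433270-30433895, a short locus of 626 bp. It stood at 42.7, 41.3 and 51.4 FPKM in the 5_Aza libraries and at 0.103, 0 and 0 in the Mock libraries. No stage library exceeded 0.280 FPKM and the rind libraries listed it at 0, so this transcript was abundant in 5_Aza flesh alone among the groups measured. The second, chr6:6564132-6568868, held 24.4, 27.4 and 25.5 FPKM in 5_Aza against 0.0503, 0.0245 and 0.175 in Mock. It was also present in rind, at 3.98 and 3.93 FPKM in R4_CT and 2.49 and 1.95 in R2_RF, but was listed at 0 in both R4_RF libraries and stayed at or under 0.230 FPKM in the flesh stages. The third, chr5:4102553-4103217, held 21.9, 17.3 and 19.1 FPKM in 5_Aza and 0.400, 0.332 and 0 in Mock, and its rind values lay between 1.61 and 3.98 FPKM in all 6 libraries.

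Of the next loci, chr10:5753112-5758083 was the most even over replicates, with 17.8, 17.8 and 16.9 FPKM in 5_Aza against 0, 0 and 0.190 in Mock, and its highest value outside 5_Aza was 0.513 FPKM in R2_RF. The 357-bp locus chr7:810712-811068 held 17.0, 13.6 and 16.0 FPKM in 5_Aza and 0.0735, 0.0990 and 0.310 in Mock, and no stage or rind library exceeded 0.845 FPKM. Both were thus without expression of 1 FPKM in any stage or rind library.
By contrast, chr2:33199676-33201140 held 15.9, 13.7 and 14.5 FPKM in 5_Aza and had its highest levels in young flesh. It stood at 28.2, 26.4 and 27.1 FPKM at 5 DAP and at 9.07, 8.84 and 9.04 at 10 DAP, and was at or under 0.159 FPKM in each 20 and 30 DAP stage library.

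The remaining loci with a 5_Aza mean of 10 FPKM or more were spread over the same kinds of pattern. In R2_RF rind, chr2:37329388-37329912 stood at 10.7 and 12.2 FPKM, close to its 13.1, 13.7 and 16.7 FPKM in 5_Aza, while R4_RF listed it at 0. A level of 5.11 FPKM in AP was the highest outside 5_Aza for chr5:8263885-8264672, which held 13.3, 13.0 and 15.0 FPKM in 5_Aza. Flesh of 0 DAP held 112, 109 and 101 FPKM of chr5:10255679-10256493, far above its 12.2, 9.50 and 13.1 in 5_Aza, and the Mock libraries listed it at 0. The 216-bp locus chr10:21739035-21739250 varied most among these 10 in 5_Aza, at 9.04, 7.51 and 13.6 FPKM. Its next highest value, 1.14 FPKM, came from R2_RF. In the Mock and 5_Aza libraries the groups did not overlap for any of the 10, which the rule fixes.

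**Figure D1:**
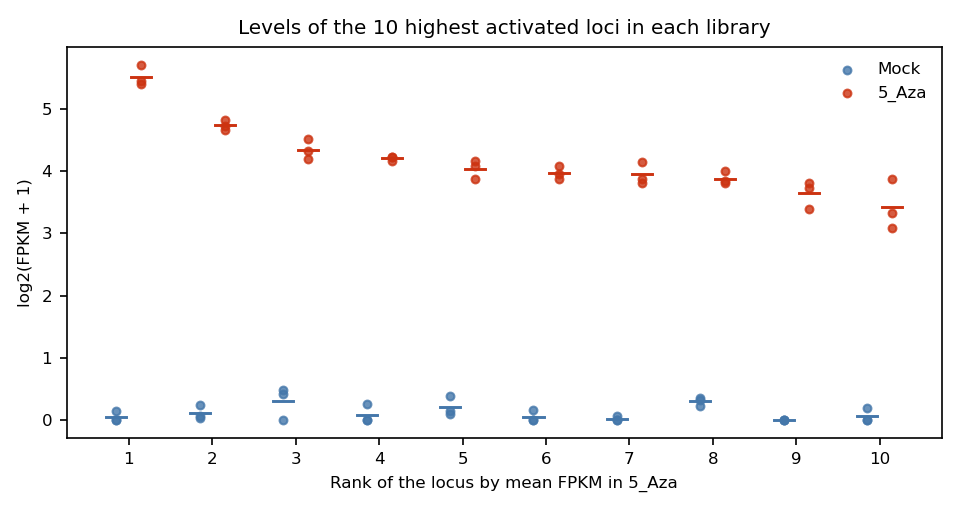
Levels of the 10 activated loci with the highest mean in 5_Aza, in rank order on the x axis, as log2(FPKM + 1) on the y axis. Each point is 1 library, bars are means over 3 libraries, and the Mock and 5_Aza points lie apart at each locus because the rule requires it.

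The limits of the rule cut through a continuous range. Just inside, chr7:18899726-18900298 held 1.20, 1.01 and 1.03 FPKM in 5_Aza, chr10:20863680-20866242 held 1.02, 1.74 and 1.99, and chr11:1081415-1082545 held 1.60, 1.33 and 1.02. Just outside that limit, chr7:6269303-6271360 had a lowest 5_Aza value of 0.999 FPKM, chr3:29782045-29784960 one of 0.997 and chr9:8671648-8673015 one of 0.993. On the Mock side, the highest Mock values of chr8:18811648-18818600, chr3:255043-256982 and chr6:3695629-3696990 were 0.499, 0.495 and 0.491 FPKM, inside the limit. Those of chr9:2406962-2407946, chr10:235989-238348 and chr4:23307529-23308662 were 0.507, 0.514 and 0.521, outside it. The last of these held 6.97, 6.50 and 5.57 FPKM in 5_Aza, more than most activated loci.

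Outside the 5_Aza libraries, the activated loci were found most often in R2_RF and R4_CT rind, and next in young flesh. In R2_RF rind 54 of 133 (40.6%) and in R4_CT rind 52 (39.1%) were at 1 FPKM or more in each library, against 10.6% and 10.8% of the Mock-silent loci. In R4_RF rind the count was 20 (15.0%, against 5.10%). In flesh it was 35 in PD (26.3%, against 25.3%), 47 in the single AP library (35.3%, against 27.5%), 30 in SW (22.6%, against 20.7%) and 28 in BW (21.1%, against 11.7%). Only 10 reached the limit in CT (7.52%, against 1.92%) and 5 in RF (3.76%, against 1.34%). In PD and SW the share was thus close to that of Mock-silent loci at large. In the rind groups it was about 3 to 4 times as high, and so it was in CT and RF flesh, where both shares were low. Over all 22596 loci the share ran from 60.8% in CT to 71.5% in AP, above that of the activated loci in every stage and rind group. No test was run on these shares, since the choice of loci by their level in 20 DAP flesh sets part of them.

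**Figure D2:**
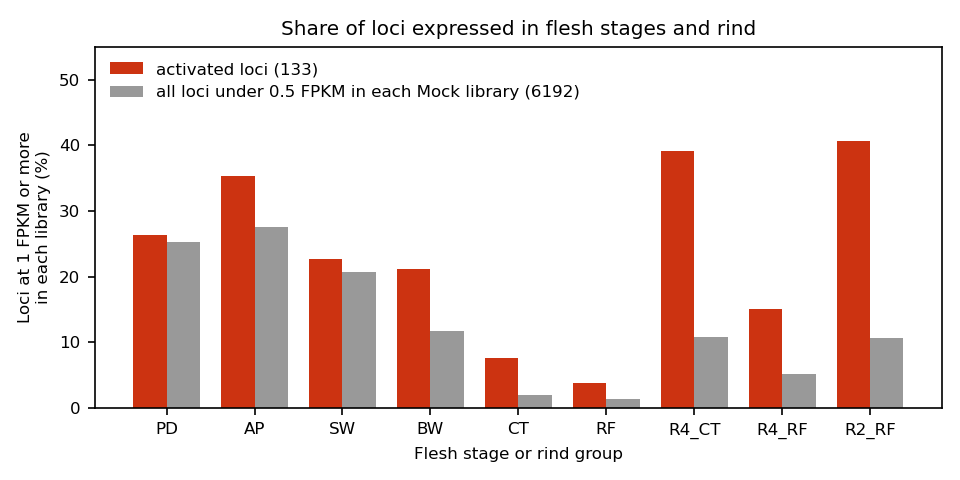
Share of loci at 1 FPKM or more in each usable library of a group, in percent, for the 133 activated loci and for all 6192 loci under 0.5 FPKM in each Mock library. AP is 1 library. The 2 bars are nearly level in PD (26.3% and 25.3%) and far apart in R4_CT (39.1% and 10.8%) and R2_RF (40.6% and 10.6%).

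Sorted by where they reached 1 FPKM in each library of a group, 40 activated loci did so in a flesh stage and in rind (30.1%, against 10.6% of the Mock-silent loci). A flesh stage alone held 17 (12.8%, against 21.8%), and rind alone held 21 (15.8%, against 3.88%). The other 55 did so in neither (41.4%, against 63.8%), and 30 of the 133 stayed under 0.5 FPKM in every stage and rind library. The rule sets a lowest level in 5_Aza and in no other group, which favours a high rank of 5_Aza. The 5_Aza mean was the highest of the 11 group means for 73 loci, or for 74 of them when AP was left out. Another 60 were higher in a stage or rind group than in 5_Aza, and 35 had a mean of 10 FPKM or more there. Apart from 5_Aza and Mock, the highest group mean fell in R2_RF for 37 loci, in R4_CT and in AP for 20 each, in PD for 17, in RF for 11, in SW for 9, in BW for 7, in CT for 5 and in R4_RF for 1. Of the 6192 Mock-silent loci it fell in PD for 1491, in AP for 847, in SW for 791, in R2_RF for 640 and in R4_CT for 420. Over all 22596 loci PD came first with 4673 and R2_RF second with 3278. As a description only, since the rule cut the 5_Aza values off at 1 FPKM and the loci share libraries, Spearman's rho across the 133 loci between the 5_Aza mean and the other group means ran from -0.26 in BW to 0.10 in R2_RF.

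**Figure D3:**
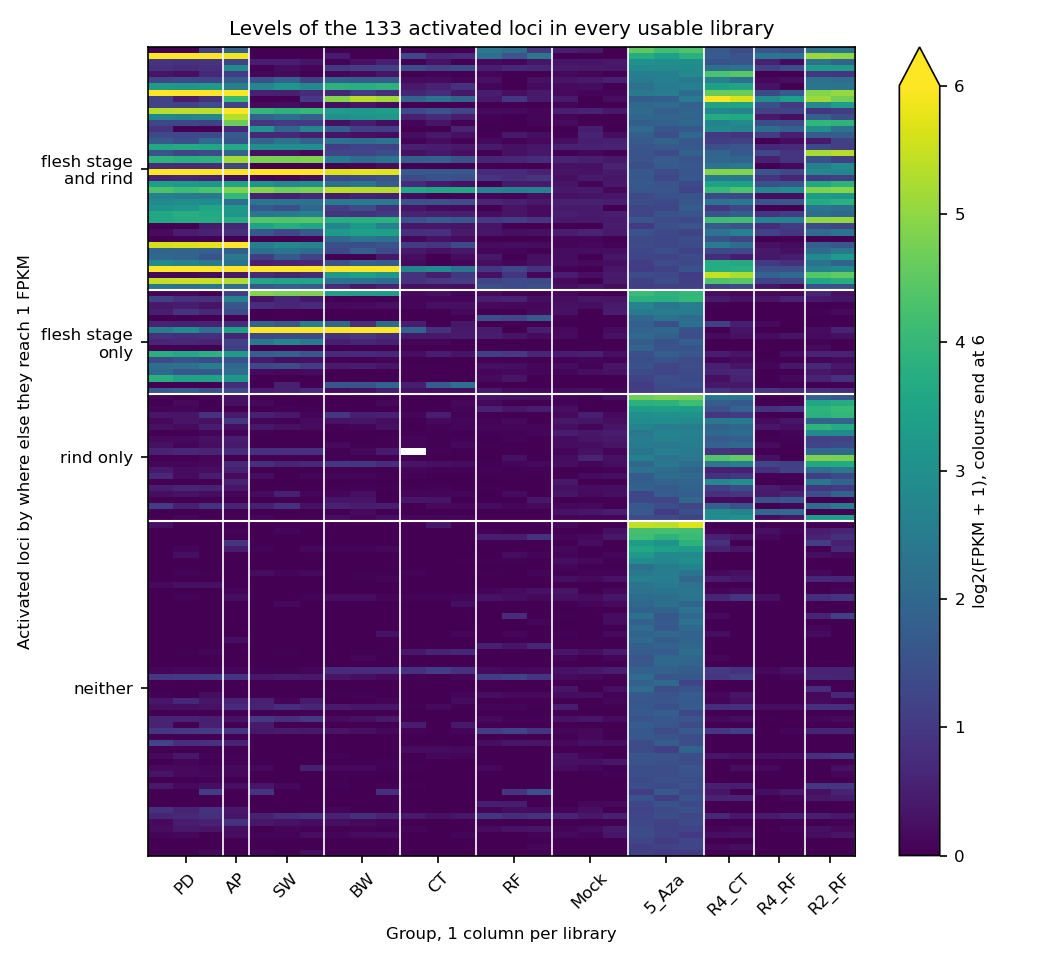
Levels of the 133 activated loci (rows) in each of the 28 usable libraries (columns), as log2(FPKM + 1), sorted by where else they reached 1 FPKM and then by their 5_Aza mean. The Mock columns are dark and the 5_Aza columns bright by the rule, 55 loci reach 1 FPKM in each library of no other group, and the R4_RF columns are darker than the R4_CT and R2_RF columns beside them. White marks a value left out, in CT replicate 1.

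The loci with the highest levels elsewhere had their peaks in young flesh, from 0 to 10 DAP, and were only faintly present in 5_Aza flesh. The level of chr2:3824498-3826219 was 1591, 1504 and 1522 FPKM at 0 DAP, 1343 at 1 DAP, 673, 663 and 677 at 5 DAP and 213, 213 and 214 at 10 DAP. It then fell to 5.79, 6.60 and 3.76 FPKM at 20 DAP, and 5_Aza held 1.08, 1.24 and 1.86 against 0.0434, 0 and 0.239 in Mock. Its level in 5_Aza was thus small beside that at the start of fruit growth. For chr10:5736983-5741823, PD held 402, 407 and 409 FPKM, AP 219, and every stage library from 5 DAP on 1.04 or less, while 5_Aza held 4.49, 4.79 and 3.34. Rind of R4_CT held 23.2 and 24.0 FPKM of it and R2_RF 28.6 and 32.7, all above 5_Aza. The 279-bp locus chr10:23682074-23682352 followed another course, with 4.76, 6.50 and 3.78 FPKM at 0 DAP, a peak of 254, 236 and 228 at 10 DAP, and a 5_Aza mean of 2.51 FPKM.

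At chr9:1226507-1231685 the 5_Aza values were 2.14, 1.59 and 2.04 FPKM, near the 2.23, 2.25 and 2.12 of 20 DAP stage flesh, whereas the Mock values were 0.254, 0.226 and 0.341. Its levels at 0 to 5 DAP lay between 101 and 126 FPKM. The fifth, chr11:4711651-4713313, stood at 116 FPKM in AP and at 1.62, 1.41 and 1.59 in 5_Aza. For each of these 5 loci, 5_Aza flesh reached a level far below the peak of the locus in fruit development.

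The 21 activated loci that reached 1 FPKM in each library of a rind group, but of no flesh stage, had a median 5_Aza mean of 4.36 FPKM. It was 1.96 FPKM for the 40 that did so in flesh and rind and 2.29 FPKM for the 55 that did so in neither. Among them, chr3:7034534-7036532 held 19.6 and 22.3 FPKM in R4_CT, 27.4 and 26.6 in R2_RF and 0.200 and 0 in R4_RF, while no stage library exceeded 0.199 FPKM. In 5_Aza flesh it held 5.00, 3.86 and 4.22 FPKM. The level of chr7:1044196-1046592 was 13.0 and 14.6 FPKM in R2_RF, 0.976 and 1.07 in R4_CT and 0 in R4_RF, and 7.05, 7.21 and 7.40 in 5_Aza. It was not absent from flesh, with 0.916, 0.427 and 0.444 FPKM in BW. Some of the 21 came near the limit in flesh, as chr5:33865821-33867128 did with 1.07, 0.447 and 0.819 FPKM in PD. Rind, Mock and 5_Aza values were written with 6 decimals and stage values with 6 significant digits, and the part of this difference in format was not tested. No activated locus combined 1 FPKM or more in each rind library with 0 in each stage library from 5 to 30 DAP.

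At the other end, 6 activated loci were listed at 0 in every usable stage and rind library. The 5 highest of them in 5_Aza were chr1:36245406-36246214, with 3.65, 4.69 and 5.55 FPKM, chr7:853027-853311, with 2.64, 2.82 and 3.87, chr9:29327760-29328350, with 2.57, 3.17 and 1.29, chr2:33215577-33216865, with 2.21, 2.49 and 1.44, and chr3:9261537-9263168, with 2.09, 1.93 and 1.73. The Mock libraries also listed the second, the third and the fourth of these at 0, so these were seen in 5_Aza flesh alone.

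Stage flesh of 20 DAP has the same age label as Mock flesh, yet 10 activated loci were at 1 FPKM or more in each CT library. The highest CT level was at chr6:26307487-26315925, with 10.8 to 11.3 FPKM in the CT libraries, 0.328, 0.344 and 0.0962 in Mock and 2.04, 1.99 and 1.31 in 5_Aza. At chr8:25344837-25345286 CT held 2.77, 3.72 and 2.83 FPKM, Mock 0.351, 0 and 0.152, and 5_Aza 2.40, 2.46 and 4.58. At these 2 loci the 5_Aza values lay near or below those of CT flesh, and the Mock values lay below both. Other stages varied widely at the second. SW held 0, 0 and 1.00 FPKM and RF 0.304, 0.977 and 0.340, while BW held 28.4, 40.0 and 34.3 and AP 15.5. The 10 loci were not all alike. At chr5:29691697-29693545 CT held 1.68, 1.33 and 1.56 FPKM and 5_Aza 6.37, 6.07 and 6.33. CT and Mock differ in cultivar label and in file format, and their difference was not tested.

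Across the flesh stages, 52 of the 133 activated loci were high enough in at least 3 libraries to be tested, and all 52 differed between stages (limma F test, adjusted p under 0.05). This is near the background, since 96.5% of 17288 tested loci and 97.9% of the tested Mock-silent loci differed, and a locus that entered only through the stage where it is high had to differ. Over all 133 loci the median difference between 20 and 0 DAP was -0.16 on the log2(FPKM + 1) scale, against -0.05 for Mock-silent loci and -0.10 for all loci. At 20 DAP 39 of the 133 were lower than at 0 DAP, of 52 tested (background 54.5% of tested loci, 88.4% of tested Mock-silent loci). Another 6 were higher, 11.5% of the 52 (32.6% and 3.12%). With no filter, the 3 libraries of 20 DAP lay below those of 0 DAP at 67 of the 133 (50.4%), against 40.9% of the Mock-silent and 45.3% of all loci, and above them at 10 (7.52%, against 2.45% and 25.5%). Selection for low levels in 20 DAP Mock flesh favours the lower direction. Median-of-ratios scaling moved the median change of all tested loci from -0.34 to -0.06 and left 39 lower and 7 higher.

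The deepest falls from 0 to 20 DAP were at chr10:5736983-5741823, with a log2 change of -8.07 (SE 0.11, limma adjusted p = 3.02e-16), and at chr2:3824498-3826219, with -7.94 (SE 0.14, limma adjusted p = 5.44e-15). The next was at chr5:10255679-10256493, with a log2 change of -5.88 (SE 0.21, limma adjusted p = 4.99e-12). Rises were small in comparison. From 0.465, 0.575 and 0.436 FPKM at 0 DAP, chr11:5729858-5733525 rose to 1.62, 1.84 and 1.78 at 20 DAP, a log2 change of 0.88 (SE 0.07, limma adjusted p = 5.26e-08). Listed at 0 at 0 DAP, chr2:26843681-26844236 stood at 0.404, 2.36 and 3.59 FPKM at 20 DAP (limma adjusted p = 0.000756), and chr8:25344837-25345286 rose by 1.17 on the log2 scale (limma adjusted p = 0.00141).

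From 20 to 30 DAP, 8 of the 133 rose, which is 15.4% of the 52 tested (background 33.3% of 17337 tested loci, 6.96% of tested Mock-silent loci). Another 19 fell, 36.5% of the 52 (28.1% and 19.6%). With no filter, the libraries of 30 DAP lay above those of 20 DAP at 24 of the 133 (18.0%, against 6.14% of the Mock-silent and 27.6% of all loci) and below them at 26 (19.5%, against 9.66% and 23.1%). Over all 133 loci the median difference was 0.00 on the log2 scale. The count of rises was 5 without RF replicate 1 and also 5 without RF replicate 2. At 30 DAP chr3:4524628-4525092 stood at 1.67, 1.42 and 2.27 FPKM after 0 in each 20 DAP library, an increase of 1.47 on the log2 scale (SE 0.09, limma adjusted p = 7.81e-09). Every earlier stage library and every rind library also listed it at 0, and 5_Aza held 2.94, 3.83 and 3.26 FPKM. It thus appeared in 30 DAP flesh and in 20 DAP flesh under 5_Aza, the latter by the rule.

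At chr5:4102553-4103217, RF held 4.21, 3.60 and 0.929 FPKM after 0 in each CT library (log2 change 1.84, SE 0.34, limma adjusted p = 0.000359). At chr10:26571565-26574697, levels went from 0.194, 0.185 and 0.153 FPKM to 1.76, 1.51 and 1.77 (log2 change 1.19, SE 0.08, limma adjusted p = 3.48e-08), and 5_Aza held 1.18, 1.21 and 1.27. The largest falls were at chr2:3824498-3826219 (log2 change -1.61, limma adjusted p = 3.75e-07), chr2:26843681-26844236 (-1.48, limma adjusted p = 0.00134) and chr8:25344837-25345286 (-1.43, limma adjusted p = 0.000535).

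The rind groups, which the rule did not use, differed widely at the activated loci. At 30 DAP, 56 of the 133 were higher in R2_RF than in R4_RF and 2 were lower (limma, adjusted p under 0.05). Among all 16557 tested loci 32.1% were higher and 38.6% lower, and among the tested Mock-silent loci 66.4% and 8.88%. The test took 61 of the 133, of which the 56 are 91.8% and the 2 are 3.28%, and a locus can enter through its higher group alone, so the filter favours differences. With no filter, both R2_RF libraries lay above both R4_RF libraries at 85 of the 133 (63.9%), against 23.7% of the Mock-silent loci and 32.8% of all loci, and the reverse held at 3 (2.26%, against 7.45% and 36.8%). The median difference over all 133 was 0.49 on the log2(FPKM + 1) scale, against 0.00 for both other sets. Without the filter, the share that was higher in R2_RF was thus above that of either other set. No difference was found at 27 of the 133, at 2763 of the 6192 Mock-silent loci and at 2818 of all loci. Such loci count in neither direction and lower the Mock-silent shares most.

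The largest of these differences was at chr3:7034534-7036532, with a log2 difference of 4.67 (SE 0.12, limma adjusted p = 2.99e-13). At chr9:2433333-2435117 R2_RF held 36.3 and 40.0 FPKM and R4_RF 1.41 and 0.883, a log2 difference of 4.20 (SE 0.15, limma adjusted p = 7.77e-12), while 5_Aza held 1.92, 1.58 and 2.65. For chr7:1044196-1046592 it was 3.89 (SE 0.14, limma adjusted p = 1.07e-11). The opposite direction was met at chr6:22368798-22371140, with 0 in both R2_RF libraries, 2.99 and 3.26 FPKM in R4_RF and 6.14 and 5.39 in R4_CT (log2 difference -2.04, limma adjusted p = 1.36e-08). The other was chr11:6943053-6944738, with 0 in both R2_RF libraries and 1.82 and 2.11 FPKM in R4_RF (-1.57, limma adjusted p = 6.01e-07). The flesh stages held at most 0.119 FPKM of the former and 0.278 of the latter. Without either 1 of the R4_RF replicates the count of lower loci was 1 in place of 2.

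Within R4 rind, 54 of the 133 were lower at 30 DAP (R4_RF) than at 20 DAP (R4_CT) and 3 were higher. These are 88.5% and 4.92% of the 61 tested. Among all tested loci 27.7% were lower and 25.6% higher, and among tested Mock-silent loci 64.2% and 7.15%. With no filter, both R4_RF libraries lay below both R4_CT libraries at 81 of the 133 (60.9%), against 25.8% of the Mock-silent and 32.4% of all loci, and above them at 3 (2.26%, against 5.62% and 29.8%). No difference was found at 30 of the 133 and at 2667 of the 6192 Mock-silent loci, which lowers the Mock-silent shares more. The median difference over all 133 was -0.41 on the log2(FPKM + 1) scale. This comparison and that of R2_RF with R4_RF share the R4_RF libraries, so they are not separate evidence for a low level in R4_RF. At 1 FPKM or more in each library, 29 of the 133 were found in R4_CT and R2_RF but not in R4_RF (21.8%, against 3.49% of Mock-silent loci), and 17 in all 3 groups (12.8%, against 3.89%).

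The largest fall was at chr9:27493392-27495394, from 18.5 and 20.8 FPKM in R4_CT to 0 in both R4_RF libraries, a log2 change of -4.37 (SE 0.14, limma adjusted p = 7.45e-12). R2_RF held 0.966 and 0.910 FPKM of it and 5_Aza 5.04, 5.05 and 6.12. Close behind were chr3:7034534-7036532 (-4.32, SE 0.12, limma adjusted p = 1.77e-12) and chr9:1226507-1231685, which went from 28.4 and 27.9 to 1.92 and 1.47 FPKM (-3.44, SE 0.12, limma adjusted p = 1.61e-11). Rises were few. At chr11:6943053-6944738 R4_CT held 0.137 and 0.136 FPKM and R4_RF 1.82 and 2.11 (log2 change 1.38, SE 0.16, limma adjusted p = 4.26e-06). At chr5:10255679-10256493 the change was 0.67 (SE 0.12, limma adjusted p = 0.000275). The third, chr4:23964009-23968271, changed by 0.51 (SE 0.17, limma adjusted p = 0.0204) and missed the threshold without either R4_CT replicate or without R4_RF replicate 2. Leaving out R4_RF replicate 2 left 1 rise of the 3.

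**Figure D4:**
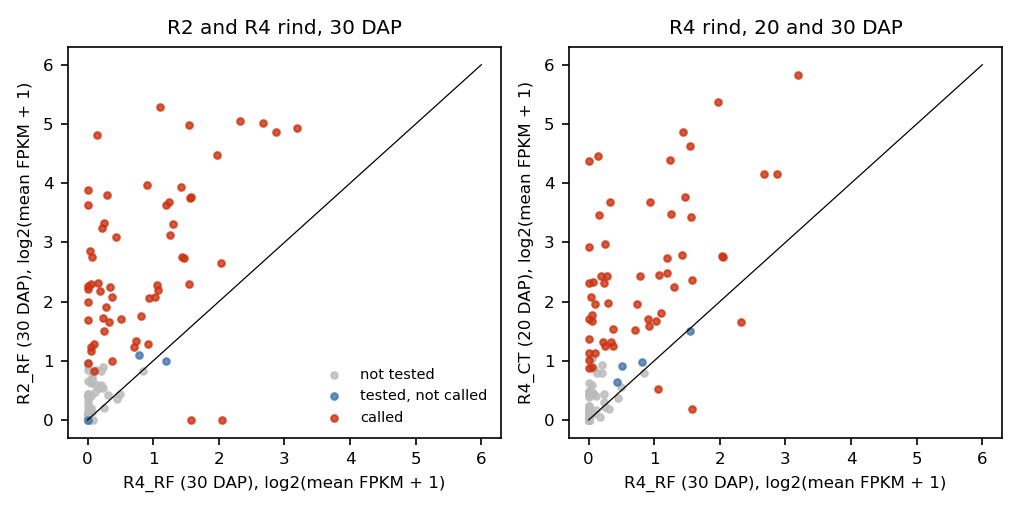
Levels of the 133 activated loci in rind as log2(mean FPKM + 1), with R4_RF on both x axes against R2_RF on the left y axis and R4_CT on the right one. Each point is a locus, red where limma called a difference, blue where it was tested and not called and grey where it was too low to be tested. Most red points lie above the line of equal level, 56 against 2 on the left and 54 against 3 on the right.

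The activated loci were of ordinary length for silent loci. Their span from start to end had a median of 1578 bp (201 to 14080 bp), against 1570 bp for Mock-silent loci and 2349 bp for all loci on the 11 chromosomes. Spans under 1000 bp belonged to 35 of the 133 (26.3%), against 35.6% and 23.5%, and at 5000 bp or more 15 (11.3%), against 11.1% and 19.8%. None overlapped another locus, which held for every locus on the 11 chromosomes. The number of loci within 500 kb of a locus had a median of 100 for the activated, 99 for the Mock-silent and 100 for all loci. The nearest other locus lay a median of 3920 bp away, against 2747 and 2139 bp, so the activated loci stood somewhat further from their neighbours in a region of usual density. Between 25% and 75% of the way along their chromosome lay 22 (16.5%), against 24.9% and 22.8%.

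Each of the 11 chromosomes held activated loci. Chromosome 2 held the most, 18, followed by 17 on chromosome 7, 15 on chromosome 5, and 13 each on chromosomes 1, 9 and 10. Chromosome 4 held 4 and chromosome 8 held 7. As a share of the Mock-silent loci of the chromosome, chromosome 7 stood first with 3.89% and chromosome 4 last with 1.22%, around 2.15% in all. The activated loci of 1 chromosome are not independent of each other where they form pairs, as several on chromosome 7 did, and no test was run.

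**Figure D5:**
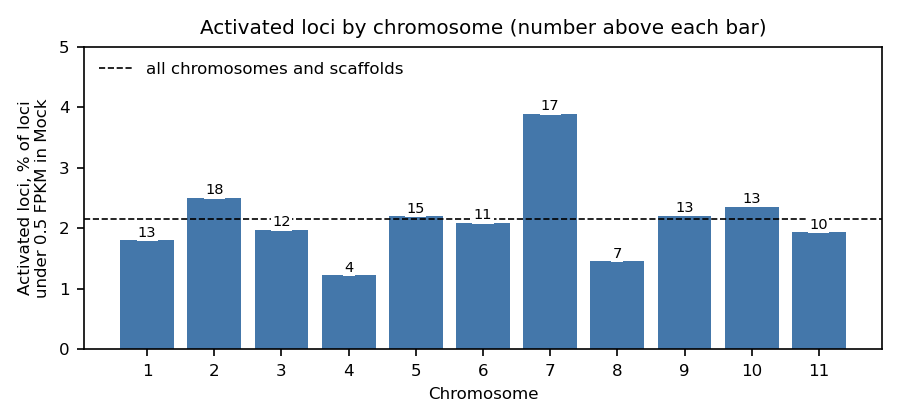
Activated loci on each chromosome (x axis) as a percentage of the loci under 0.5 FPKM in each Mock library there (y axis), with their number above each bar. The dashed line is the share over all chromosomes and scaffolds (2.15%), and chromosome 7 stands highest at 3.89%.

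Most activated loci lay alone, with a median gap of 1044 kb to the next. In chromosome order 16 of them formed 8 runs with no other locus between, each run a pair. Neither these runs nor the clusters below were counted in other sets of loci, so whether they are more than usual was not tested. Joined by gaps of at most 100 kb, 32 of the 133 formed 14 clusters, of which 12 were pairs, 1 held 3 loci and the largest held 5. That largest cluster covered 98.4 kb at the start of chromosome 7, from chr7:754915-755232 to chr7:853027-853311, with 5 other loci between its members. Its central locus was chr7:810712-811068, with the 5_Aza mean of 15.5 FPKM, and 2 of the 8 pairs lay in it.

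The first of those pairs combined unlike loci. In SW, chr7:754915-755232 held 7.71, 2.89 and 5.68 FPKM, and in rind 2.65 to 6.84 FPKM, while its neighbour chr7:756497-757788, 1264 bp further on, held 0.484 FPKM or less in rind and 0 to 1.76 in the flesh stages. In 5_Aza the former held 3.29, 1.95 and 2.14 FPKM and the latter 1.12, 2.21 and 1.51. The second pair was alike, since chr7:845182-845451 (270 bp) and chr7:853027-853311 (285 bp) were listed at 0 in each Mock and stage library. In 5_Aza they held 3.31, 2.13 and 3.16 FPKM and 2.64, 2.82 and 3.87 FPKM.

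The pair with the highest level lay on chromosome 10, 11288 bp apart. There chr10:5736983-5741823 was the 0 DAP gene with 402 to 409 FPKM described above, and chr10:5753112-5758083 held 16.9 to 17.8 FPKM in 5_Aza and at most 0.0829 FPKM in any stage library. These neighbours thus differed widely in their levels during fruit growth. On chromosome 11, chr11:1086466-1087611 held 1.98, 3.09 and 2.93 FPKM in 5_Aza beside chr11:1081415-1082545 with 1.60, 1.33 and 1.02, and neither exceeded 0.258 FPKM in another library.
On chromosome 2, chr2:28905440-28906563 and chr2:28913934-28915060 had values within 10% of each other in 21 of the 24 libraries where both exceeded 0.05 FPKM, and spans of 1124 and 1127 bp. Such values can arise when reads of near-identical copies are shared out between them, so these 2 may not be separate observations. The same reservation holds to a lesser degree for chr7:26461760-26463030 and chr7:26465633-26467366 (within 10% in 6 of 15 libraries) and for chr1:33681378-33682640 and chr1:33686766-33688028, whose spans are both 1263 bp (2 of 12 libraries).

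Loci next to an activated locus rose about as often as loci at large, though the share that rose at least 2-fold was higher. Of 247 flanking loci, 1 on each side and not activated themselves, 147 were high enough to be tested, and 50 of them rose and 17 fell in 5_Aza against Mock (limma, adjusted p under 0.05). This is 34.0% and 11.6% of those tested, near the background of 29.5% and 13.3% of all 15552 tested loci. That background includes all 133 activated loci, which pass the filter by the rule. A rise of at least 2-fold was seen at 11 (7.48%), against 4.09% of all tested loci. The activated loci, chosen for a rise, add to the latter share, and the share without them was not counted. Under median-of-ratios scaling 40 rose and 33 fell, where 21.3% and 22.4% of all loci were called, so the balance of rises and falls depends on the scaling. Without 5_Aza replicate 3 the count of rises was 33. By distance, 26.3% to 41.2% of tested loci rose at 1 to 10 positions from the nearest activated locus, with no steady course, and 28.5% rose further away. At least 1 flanking locus rose beside 45 of the 133. This was not counted for other loci, many of which must have such a neighbour where 29.5% of tested loci rise.

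The largest rises among flanking loci were of many-fold size. Beside the most abundant activated locus, chr2:30424331-30424897 went from 0.832, 0.543 and 0.833 FPKM in Mock to 67.5, 71.8 and 65.9 in 5_Aza, a log2 change of 5.32 (SE 0.09, limma adjusted p = 2.71e-11). It was listed at 0 in every usable stage and rind library, and only its Mock level kept it outside the rule. At chr2:28214752-28219138, Mock held 1.67, 1.21 and 1.93 FPKM and 5_Aza 71.0, 73.4 and 75.8 (log2 change 4.85, SE 0.10, limma adjusted p = 1.01e-10), while its activated neighbour chr2:28235757-28240533 had a 5_Aza mean of 2.48 FPKM. At chr10:21731019-21731246, next to chr10:21739035-21739250, levels went from 1.01, 2.25 and 0.862 to 16.9, 13.7 and 18.9 FPKM (log2 change 2.92, SE 0.19, limma adjusted p = 5.42e-07).

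Falls beside activated loci were smaller. The largest was at chr9:34486131-34486658, from 8.05, 7.27 and 8.33 FPKM in Mock to 2.70, 3.52 and 3.16 in 5_Aza (log2 change -1.11, SE 0.10, limma adjusted p = 7.97e-06). The next, at chr6:22392109-22394668, was -0.52 (SE 0.06, limma adjusted p = 4.63e-05). That at chr5:33869036-33869447 was -0.50 (SE 0.14, limma adjusted p = 0.0155), which missed the threshold without Mock replicate 3 or without 5_Aza replicate 1 or 3.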

How the data were processed

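Per the labels' protocols, total RNA was isolated with Trizol, cleared of DNA with DNase I and made into Illumina libraries, run on a HiSeq 2500 by the design text. fastp, HISAT2 and SAMtools 1.5 appear in the submitters' processing notes. Neither the quantifier nor the annotation or genome build is given in the sources used here. Per the file headers, each deposited table holds 1 FPKM value per locus, scaled by the authors for length and library total. Counts and depth are unknown.

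Libraries were joined on the locus column. In PD replicate 3 values were moved by 1 row from a stray record on, which raised its correlation with PD replicate 1 from 0.1195 to 0.9933. AP replicates 1 and 2 were left out, since their highest correlation with a library of another group was 0.007718. Blocks of 50 loci in AP replicate 3 and CT replicate 1 with correlations of 0.5669 and 0.7081 were left out, so 1 activated locus lacks a value in CT replicate 1.

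Differences were fitted on R 4.3.3 with limma 3.58.1 (trend, robust empirical Bayes) on log2(FPKM + 1), a scale that understates changes of low loci, over every locus at 1 FPKM or more in at least 3 libraries (2 for rind), with Benjamini-Hochberg adjustment over all loci and a threshold of 0.05. The fits took 16 stage libraries (17337 loci, 10 residual degrees of freedom), 6 rind libraries (16557 loci, 3 degrees) and the 6 Mock and 5_Aza libraries (15552 loci, 4 degrees). The lone AP library was assumed to vary like the other stages. The scripts were tested on simulated data. Changes were set there only at loci of a higher level than most activated loci, so recovery at such low levels was not tested. Alternatives were the limits of the rule, the pseudocount, the filter, the scaling, the libraries in the fit, the replicate block and leaving out each replicate.

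The members, lists and tests were chosen with earlier results of these data known. Named loci are the 10 highest in 5_Aza, the 5 highest elsewhere, the 5 highest in 5_Aza among those at 0 elsewhere, members of 5 runs, up to 3 called loci per comparison and direction with the largest change, those nearest the limits of the rule, and flanking loci that changed most. The loci with 1 FPKM or more in CT, the closely similar pairs and the rind examples were named after their values were seen. Lists of genes by product were not applied, as the files pair no product with a locus.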

Additional observations from a re-analysis of the deposited data

Results flagged for a closer look

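At 15 of the 133 activated loci every 30 DAP library lay above every 20 DAP library in flesh and below every one in R4 rind, and the reverse held at 0. This joint count was not made for other loci. The flesh part alone held at 24 of the 133 (18.0%, against 6.14% of the Mock-silent and 27.6% of all loci). The R4 rind part alone held at 81 (60.9%, against 25.8% and 32.4%), so a joint count of this size may follow from the single parts. At 2 of the 15, limma called the change in both tissues (adjusted p under 0.05). The log2 change of chr6:26304017-26307372 was 0.33 in flesh, from 0.821 to 1.13 FPKM over the CT libraries to 1.39 to 1.55 FPKM over the RF libraries, and -3.16 in R4 rind, from 19.3 and 20.8 to 1.29 and 1.42 FPKM. That of chr10:26571565-26574697 was 1.19 in flesh, from 0.194, 0.185 and 0.153 to 1.76, 1.51 and 1.77 FPKM, while both R4_CT libraries lay at 1.25 FPKM or more and the R4_RF libraries at 0.269 and 0.109 FPKM. The difference between the tissues was not tested, and it crosses the 2 number formats of the files.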

How the results depend on the processing

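Of the summary values, 174 of the 190 recomputed under alternatives stayed within 1.5 times the reported value, and none reversed. With the Mock limit at 0.1 FPKM the rule gave 43 loci, and with the 5_Aza limit at 2 FPKM 62. With no filter on low values, 96 activated loci differed between stages, 20 were higher at 30 than at 20 DAP and 65 were lower at 20 than at 0 DAP. More loci enter that fit, 20722 in all. With the CT and RF libraries alone, 4 were higher and 10 lower at 30 than at 20 DAP, with fewer libraries to estimate the spread. For both fits the share called over all loci is not given. Their counts therefore do not set the activated loci apart from loci at large. With 2 loci on each side of an activated locus, 100 flanking loci rose and 40 fell, and with median-of-ratios scaling 33 fell. Leaving out 1 replicate at a time gave 5 to 8 rises from 20 to 30 DAP, 1 to 2 loci lower in R2_RF than R4_RF, 1 to 3 higher in R4_RF than R4_CT, and 33 to 51 flanking rises. The rule itself gave 147 to 153 loci with 1 replicate left out, and 12 to 19 clusters were found at gaps of 50 to 200 kb. Of the changes at named loci, 436 of 442 alternatives kept their direction and their side of the threshold. The other 6 concern chr4:23964009-23968271, with adjusted p up to 0.218, and chr5:33869036-33869447, with adjusted p up to 0.0612, when a replicate was left out of limma.

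Correlations of the deviations of same-numbered libraries ran from -0.066 to 0.071 in the stages and from -0.0473 to 0.0639 in Mock and 5_Aza, so numbers were not taken to pair libraries there. In rind they ran from 0.0343 to 0.126, and those of differently numbered libraries from -0.126 to -0.0343. With 2 libraries a group these mirror each other by construction, and 2 numbers are too few to show a pairing. A replicate block left 52 loci that differed between stages, 55 higher in R2_RF than R4_RF and 49 flanking rises. Depth, which is unknown, limits values near 0 most: 51 activated loci had a 5_Aza mean under 2 FPKM, and how many reads these rest on was not analysed here.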
